A study of Mus musculus with 17 samples.

Results

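Toll-like receptors were measured in conventional dendritic cells (cDCs) of the mouse spleen that had been given the debris of dying tumor cells. The members were taken by gene symbol: Tlr1, Tlr2, Tlr3, Tlr4, Tlr6, Tlr7, Tlr9, Tlr11, Tlr12 and Tlr13, which are 10 of the 31091 gene identifiers in the count table. The study asked how apoptotic and necroptotic tumor cells change cDC1s, the lineage that cross-presents antigen to CD8+ T cells, and cDC2s, the lineage that mainly serves CD4+ T cells. All donors were C57BL/6JRj mice that carried a subcutaneous B16 melanoma secreting FLT3 ligand, which expands cDCs, so no group shows cDCs of a tumor-free animal. GM-CSF was present in every culture. Medium of TC-1 lung tumor cells was added to CD11c+ spleen cells, and after 6 h cDC1s and cDC2s were sorted. The medium came from live wild-type TC-1 cells (WT), from TC-1-iBimS cells dying by apoptosis through the BH3-only protein BimS (BimS), or from TC-1-iRIPK3 cells dying by necroptosis through the kinase RIPK3 (RIPK3). Cumate, the inducer of both transgenes, was given to all TC-1 cells, the WT cells included. Each inducible line is a clone grown from 1 cell, so the mode of death and the clone cannot be told apart. The 6 groups hold 17 samples, 3 in each group except RIPK3 cDC2s, which have 2, and by the study's statement on primary cells the spleens of several mice were pooled. Whether replicates are separate pools of mice is not given in the sources used here, so the p-values measure the spread between these samples.

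Toll-like receptors are membrane receptors that recognize molecules of microbes and, in some settings, of damaged cells. Those at the cell surface read lipids and lipoproteins: Tlr2 pairs with Tlr1 or Tlr6, and Tlr4 binds lipopolysaccharide. Those in endosomes, the compartments to which phagocytosed material is delivered, read nucleic acids (Tlr3 double-stranded RNA, Tlr7 single-stranded RNA, Tlr9 unmethylated CpG DNA, Tlr13 a bacterial ribosomal RNA) or, for Tlr11 and Tlr12, the parasite protein profilin. Most signal through the adaptor Myd88, whereas Tlr3 signals through Ticam1 (TRIF) and Tlr4 through both. The endosomal members need the chaperone Unc93b1 to reach their compartment.

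The libraries held 16095159 to 21645289 counts assigned to genes, with a median of 18986002. Levels are given as CPM, counts divided by the size of the library after edgeR's TMM scaling, and levels of different genes are compared only per kilobase of exon (RPKM). The labelled cell types were checked against their markers. The summed level of 8 cDC1 markers was 1410 to 1730 CPM in cDC1s and 99 to 132 CPM in cDC2s, with Xcr1 at 152 ± 6.5 CPM (SD, n = 3) in WT cDC1s and 0.507 ± 0.059 CPM (SD, n = 3) in WT cDC2s. Sirpa, which marks cDC2s, was at 1.43 ± 0.389 CPM in WT cDC1s and 191 ± 16.4 CPM in WT cDC2s (SD, n = 3 each). The 8 cDC2 markers summed to 292 to 381 CPM in cDC2s and 69.2 to 106 CPM in cDC1s, and 1 of them, Clec12a, was the reverse of its label (92 CPM in WT cDC1s, 7.07 CPM in WT cDC2s). Markers of other receptor-bearing cells were low: 8 B-cell markers summed to at most 2.05 CPM in any sample, 8 neutrophil markers to at most 3.24 CPM, and Siglech, a defining gene of plasmacytoid dendritic cells, to at most 12 counts. The 8 plasmacytoid markers together summed to 110 to 249 CPM (122 to 132, 110 to 115 and 114 to 121 CPM in WT, BimS and RIPK3 cDC1s, and 227 to 249, 218 to 235 and 203 to 208 CPM in the cDC2s). Of these, Tcf4 made up 43 CPM and Ptprs 48.8 CPM on average in WT cDC1s. The 8 T- and NK-cell markers summed to at most 2 CPM. Epithelial and adherent-cell markers, chosen to stand for TC-1 cells, summed to 1.73 to 2.68 CPM in cDC1s and to 18.1 to 39 CPM in cDC2s, most of the latter being Cdh1. The 9 macrophage or monocyte markers summed to 4.45 to 11.7 CPM in cDC1s and to 15.5 to 30.5 CPM in cDC2s. In bulk samples, fewer cells of a type and less RNA per cell cannot be told apart.

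The surface receptors are encoded, in mouse build GRCm39, at chr5:65082022-65090941 (Tlr1), chr3:83743576-83749074 (Tlr2), chr4:66745783-66849936 (Tlr4) and chr5:65108704-65203497 (Tlr6). The endosomal receptors lie at chr8:45848702-45864117 (Tlr3), chrX:166086758-166113605 (Tlr7), chr9:106099797-106104082 (Tlr9), chr14:50595371-50601120 (Tlr11), chr4:128509236-128512412 (Tlr12) and chrX:105186810-105204533 (Tlr13). All 10 are protein-coding. The deposited counts are given per gene, and the rule of counting is not given in the sources used here. Coordinates and the exon lengths behind RPKM are those of GENCODE, whereas the counts used Ensembl gene models. Whether the exons are the same was not checked.

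cDC1s and cDC2s carried different receptor repertoires. Pooling the 3 media, with the medium as a term of the fit, 10 of 10 members differed between the cell types (edgeR's quasi-likelihood test, Benjamini-Hochberg adjusted p under 0.05), 6 higher in cDC1s and 4 lower. Differences between these lineages are common, since 59.8% of the 19082 genes tested were called (30.4% higher in cDC1s, 29.4% lower). For 9 of the 10 members the samples of the cell types did not overlap, and the exception was Tlr6. The following levels are over 9 cDC1 and 8 cDC2 samples.

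Among the surface receptors, Tlr1 was the most lineage-specific. It ranged from 2.65 to 4.74 CPM in cDC1s (median 3.68) and from 67.3 to 101 CPM in cDC2s (median 89.7). Its level was 23.6-fold higher in cDC2s (log2 fold change of cDC1 over cDC2 -4.56 ± 0.0642 SE, adjusted p = 3.88e-31). Tlr2, its partner, ranged from 8.29 to 11.7 CPM in cDC1s (median 9.59) and from 31.9 to 46.8 CPM in cDC2s (median 38.9). That is 3.88-fold more in cDC2s (log2 fold change -1.96 ± 0.0646 SE, adjusted p = 6.68e-22). Tlr4 had the opposite order, at 17.7 to 23.1 CPM in cDC1s (median 20.1) and 7.1 to 10.5 CPM in cDC2s (median 9.2), and was 2.32-fold higher in cDC1s (log2 fold change 1.21 ± 0.0731 SE, adjusted p = 2.65e-15). Tlr6, the other partner of Tlr2, was nearly even: 11.6 to 18.2 CPM in cDC1s (median 14.7) and 14.8 to 19.6 CPM in cDC2s (median 18.7), with overlapping samples. Its difference of -0.28 ± 0.0546 (log2, SE) was small but called (adjusted p = 4.44e-05), and the call was lost with limma on unscaled log2(count + 1) values (-0.09, adjusted p = 0.315). Thus both partners of Tlr2 were expressed in both lineages, but Tlr1 differed between them far more than Tlr6.

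Of the endosomal receptors, 5 of 6 were higher in cDC1s. Tlr9 ranged from 45.8 to 72.7 CPM in cDC1s (median 69.1) and from 9.24 to 18.8 CPM in cDC2s (median 12.2), a 4.81-fold difference (log2 fold change 2.27 ± 0.109 SE, adjusted p = 6.02e-12). Tlr13 behaved alike, with 28 to 40.6 CPM in cDC1s (median 32.7) and 5.05 to 9.29 CPM in cDC2s (median 6.65), or 4.85-fold (log2 fold change 2.28 ± 0.109 SE, adjusted p = 2.13e-13). For both, the lowest cDC1 sample lay above the highest cDC2 sample.

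Tlr3, Tlr11 and Tlr12 were near the detection limit in cDC2s. Tlr11 had 120 to 288 counts in each cDC1 sample and 1 to 5 in each cDC2 sample, and its pooled level was 47-fold higher in cDC1s (95% counting interval 32.2 to 71.5). Tlr3 had 41 to 85 counts in cDC1s and 0 to 6 in cDC2s, a ratio of 32 (18.9 to 58.9). Tlr12 had 16 to 46 counts in cDC1s and 0 to 2 in cDC2s, a ratio of 49.4 (19.1 to 183). Tlr12 was at 0 counts in all BimS and RIPK3 cDC2s, and Tlr3 in both RIPK3 cDC2 samples, where a count of 0 allows up to 3 counts a library. Tlr7 was the reverse, with 5 to 17 counts in each cDC2 sample and 0 to 4 in each cDC1 sample, and was 9.04-fold higher in cDC2s (4.78 to 18.8). These intervals cover counting error only. The fit called these 4 genes as well, with adjusted p-values of at most 3.85e-07 (Tlr7). The receptors Tlr5 and Tlr8, which are not among the 10, were also low: at most 25 and 33 counts in a cDC2 sample, and at most 10 and 2 in a cDC1 sample.

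**Figure D1:**
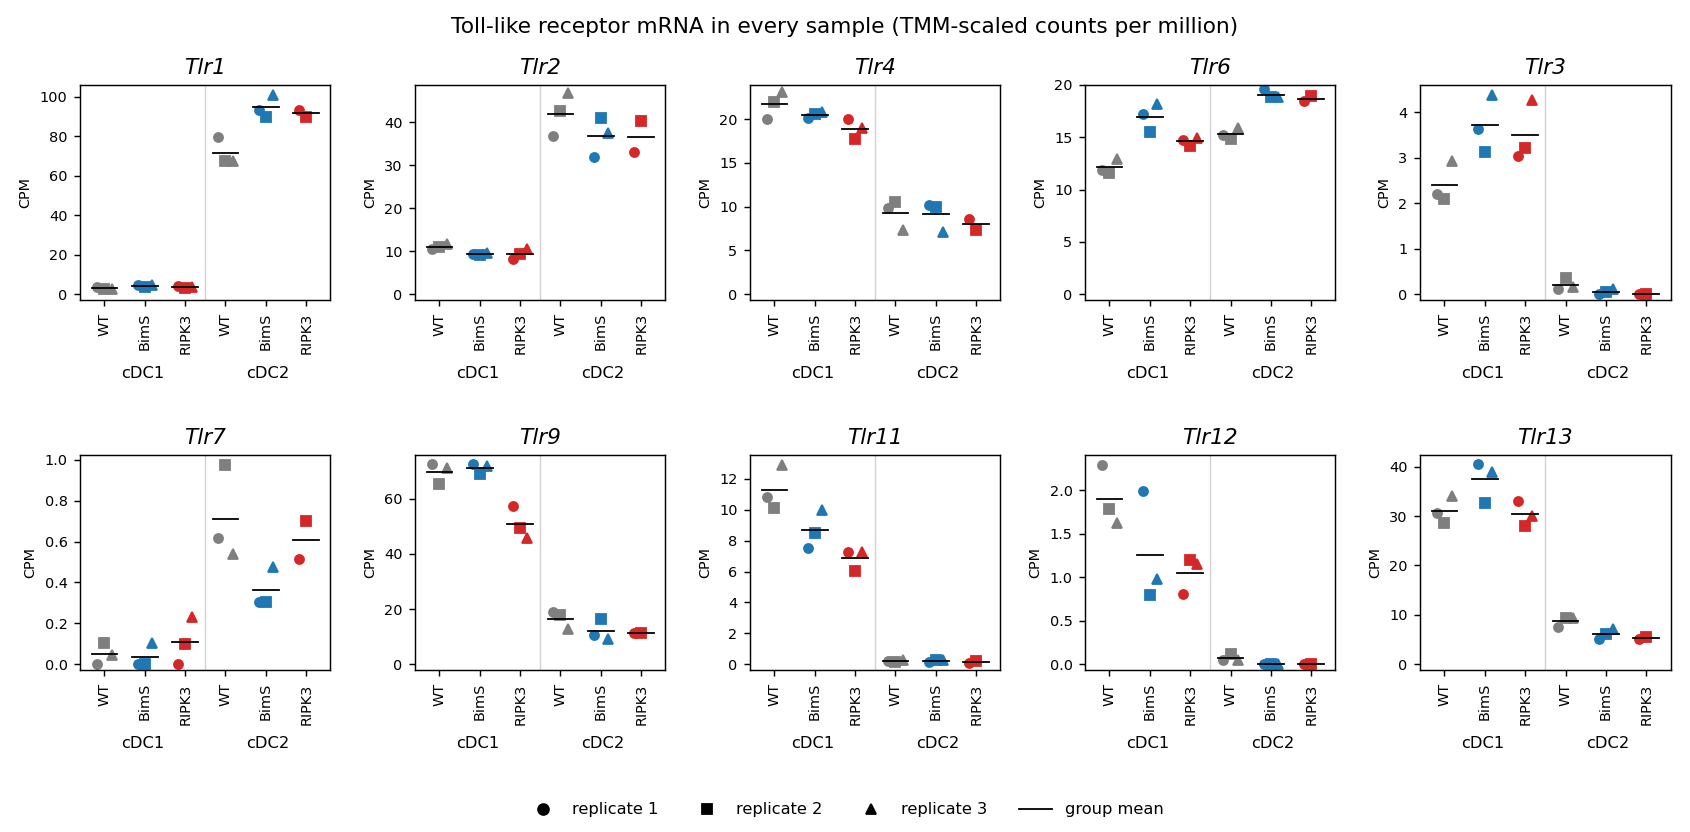
Level of each receptor in every sample, as TMM-scaled CPM on a linear axis that differs between panels. Color marks the medium (gray WT, blue BimS, red RIPK3), the symbol the replicate number, and the bar the group mean. Tlr1, Tlr2 and Tlr7 are higher in cDC2s, Tlr6 overlaps, and the other 6 are higher in cDC1s.

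Per kilobase, each lineage had 1 dominant receptor mRNA. In WT cDC1s Tlr9 led with 20 RPKM, or 50.6% of the summed level of the 10 receptors, followed by Tlr13 (6.57 RPKM), Tlr11 (3.44 RPKM) and Tlr4 (3.1 RPKM). Tlr6 (2.5 RPKM), Tlr2 (2.01 RPKM), Tlr1 (0.875 RPKM), Tlr12 (0.597 RPKM) and Tlr3 (0.448 RPKM) came next, and Tlr7 was last at 0.00922 RPKM. Tlr11 overlapped Tlr4, and Tlr12 overlapped Tlr3, across the 3 samples, whereas all other neighbours in this order were separate. In WT cDC2s Tlr1 led with 21.2 RPKM, or 52.8% of the sum, followed by Tlr2 (7.66 RPKM), Tlr9 (4.73 RPKM), Tlr6 (3.15 RPKM), Tlr13 (1.84 RPKM) and Tlr4 (1.31 RPKM). The remaining 4 were at or below 0.134 RPKM, and of these Tlr11, Tlr3 and Tlr12 overlapped their neighbours. The summed level was similar in the lineages, at 39.6 ± 2.17 RPKM in WT cDC1s and 40.1 ± 1.77 RPKM in WT cDC2s (SD, n = 3 each). It was 41.5 ± 2.11 RPKM in BimS cDC1s and 32.6 ± 2.2 RPKM in RIPK3 cDC1s (SD, n = 3 each), and the 3 RIPK3 sums (31 to 35.1 RPKM) lay below the WT sums (37.2 to 41.5 RPKM). In cDC2s it was 44.9 ± 1.58 RPKM with BimS (SD, n = 3) and 43.3 ± 0.218 RPKM with RIPK3 (SD, n = 2), above the WT sums of 38.6 to 42.1 RPKM.

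**Figure D2:**
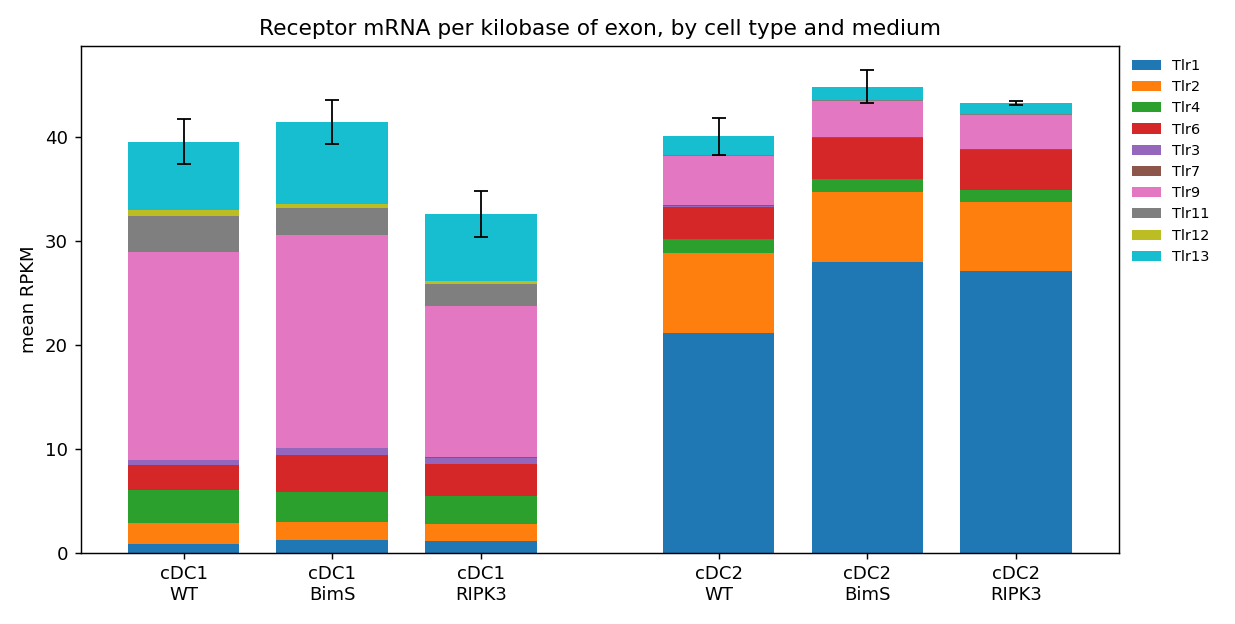
Mean RPKM of the 10 receptors stacked by group, with error bars of 1 SD of the sum over samples (n = 3, or 2 for RIPK3 cDC2s). Tlr9 makes up the largest segment in the cDC1 groups (44.8% to 50.6%) and Tlr1 in the cDC2 groups (52.8% to 62.5%).

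Tlr1 and Tlr6 are neighbouring paralogs on chromosome 5, and part of their sequence is identical, which bears on how reads are assigned. Of the 45 pairs of members, this was the 1 pair whose transcripts share any word of 54 bases, the read length of the study. They share 430 such words, 12.4% of those in Tlr1 and 8.81% of those in Tlr6, so the split of counts between them is uncertain. These shares do not bound the uncertainty of Tlr6 in cDC2s, where Tlr1 is several times more abundant. Nor do they bound that of Tlr1 in cDC1s, where Tlr6 is the more abundant (2.5 against 0.875 RPKM with WT medium). How far the levels and changes of either receptor there hold reads of the other was not measured. How the counting treated such reads, and whether it used strand, is not given in the sources used here. The longest identical run has 229 bases and lies in the coding sequence of both genes, at chr5:65082880-65083108 in Tlr1 and chr5:65111171-65111399 in Tlr6 (GRCm39, minus strand of the chromosome, printed 5′ to 3′ along the gene). It is shown because reads inside it carry no information on which gene they came from.
Tlr1 and Tlr6: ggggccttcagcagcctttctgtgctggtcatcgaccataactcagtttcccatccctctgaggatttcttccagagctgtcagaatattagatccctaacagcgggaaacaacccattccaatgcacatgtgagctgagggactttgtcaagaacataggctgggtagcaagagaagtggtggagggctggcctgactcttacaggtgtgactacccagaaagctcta
Tlr3, Tlr4 and Tlr11 overlap annotated transcripts on the opposite strand over 438, 235 and 149 bp of exon, whose genes are not listed in the count table.

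Apoptotic debris raised 4 receptors and lowered 1 in cDC1s. Of the 10 members tested, 5 were called between BimS and WT cDC1s, against 13.2% of the 19513 genes tested (7.31% higher, 5.89% lower), and their median log2 fold change was -0.03, against 0 over all genes. Tlr6, Tlr3, Tlr1 and Tlr13 were higher and the profilin receptor Tlr11 was lower. Tlr1 and Tlr6 share sequence, and how far their calls are separate was not measured. The count of members called was 3 with DESeq2, 1 with limma and 2 in a fit of all 6 groups. It was as few as 2 when 1 sample was left out (without WT replicate 2). With the replicate number as a block it was again 5, where 17.9% of all genes were called. The adjusted p with the block was 2.43e-06 for Tlr6, 0.0117 for Tlr1, 0.00494 for Tlr3, 0.00436 for Tlr11 and 0.00056 for Tlr13.

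Tlr6 was at 11.9, 11.6 and 12.9 CPM in the WT samples, and at 17.2, 15.5 and 18.2 CPM in the BimS samples. The groups did not overlap, and the increase was 1.39-fold (log2 fold change 0.48 ± 0.0921 SE, 95% interval 0.29 to 0.67, adjusted p = 0.000199). This call held in every fit run. Tlr1 was at 3.49, 2.65 and 2.74 CPM with WT medium and at 4.74, 3.69 and 4.38 CPM with BimS medium, from 52 to 93 counts a sample. Every BimS sample was above every WT sample, although BimS replicate 2 exceeded WT replicate 1 only narrowly (log2 fold change 0.53 ± 0.173 SE, adjusted p = 0.0354). Its call was lost with DESeq2 (adjusted p = 0.062) and limma (0.132), and when WT replicate 2 (0.148) or 3 (0.148) or BimS replicate 1 (0.166) or 3 (0.102) was left out.

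Tlr3, the receptor for double-stranded RNA, was at 2.19, 2.09 and 2.92 CPM in WT cDC1s and at 3.62, 3.13 and 4.38 CPM in BimS cDC1s. All BimS samples exceeded the WT samples, by 1.53-fold (log2 fold change 0.61 ± 0.193 SE, adjusted p = 0.0273). In both groups replicate 3 was the highest. The Tlr3 call was lost with limma (adjusted p = 0.0657), in the fit of all 6 groups (0.0779), and without WT replicate 1 (0.113), WT replicate 2 (0.125) or BimS replicate 3 (0.188). Tlr13 was at 30.7, 28.6 and 34 CPM with WT medium and at 40.6, 32.7 and 39 CPM with BimS medium. BimS replicate 2 lay below WT replicate 3, so the groups overlapped, and the difference was 1.2-fold (log2 fold change 0.26 ± 0.0815 SE, adjusted p = 0.0281). Within each replicate number Tlr13 was higher with BimS than with WT medium. For Tlr13 the call was lost with limma (adjusted p = 0.285), in the 6-group fit (0.107), and without WT replicate 1 (0.0977), WT replicate 2 (0.151), BimS replicate 1 (0.158) or BimS replicate 3 (0.123).

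Tlr11 was at 10.8, 10.1 and 12.9 CPM with WT medium and at 7.54, 8.51 and 10 CPM with BimS medium. Its groups were separate but close, and it fell by 0.38 on the log2 scale (SE 0.121, adjusted p = 0.0294). The Tlr11 call was lost with DESeq2 (adjusted p = 0.0507), limma (0.0747), the 6-group fit (0.0862), and without WT replicate 3 (0.266), BimS replicate 1 (0.167) or BimS replicate 2 (0.0754). The remaining 4 measurable members did not pass. Tlr9 had a difference of 0.03 (95% interval -0.1 to 0.16), and Tlr4 one of -0.09 (-0.25 to 0.08). Tlr2, at 10.4 to 11.7 CPM with WT and 9.11 to 9.59 CPM with BimS medium, had -0.24 (-0.46 to -0.02, adjusted p = 0.159). Tlr12 had -0.6 (-1.17 to -0.03, adjusted p = 0.183), and would be called without BimS replicate 1 (-1.1, adjusted p = 0.0123), its highest sample there at 39 counts against 17 and 19.

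With necroptotic debris, 3 of the 10 members were called against WT medium in cDC1s and these 3 were lower, where 16.5% of all genes were called (8.35% higher, 8.18% lower). The median log2 fold change of the members was -0.12, against -0.01 for all genes. The 3 were the endosomal receptors Tlr9, Tlr11 and Tlr12.

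Tlr9, the receptor for CpG DNA and the most abundant receptor mRNA of cDC1s, was at 72.5, 65.5 and 71.1 CPM with WT medium, at 72.7, 69.1 and 71.8 CPM with BimS medium, and at 57.5, 49.3 and 45.8 CPM with RIPK3 medium. The RIPK3 samples lay below all 6 others. Tlr9 fell by 0.45 on the log2 scale relative to WT cDC1s (SE 0.0662, 95% interval -0.59 to -0.32, adjusted p = 2.42e-06), a decrease to 0.73 of the WT level. Relative to BimS cDC1s it fell by 0.48 (SE 0.0662, 95% interval -0.62 to -0.35, adjusted p = 1.04e-05). Both calls held when any 1 sample was left out, with DESeq2 and with limma. They were lost in the fit in which all 6 groups share 1 estimate of the spread (adjusted p = 0.0534 and 0.147).

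Tlr11 was at 7.28, 6.02 and 7.25 CPM in RIPK3 cDC1s, below every WT sample. It fell by 0.72 relative to WT (SE 0.126, adjusted p = 3.7e-05), a decrease to 0.605 of the WT level, and no alternative changed this call. Tlr12 was at 2.29, 1.78 and 1.62 CPM with WT medium (46, 35 and 36 counts) and at 0.809, 1.2 and 1.15 CPM with RIPK3 medium (16, 24 and 20 counts). The groups did not overlap and the fall was 0.84 (log2, SE 0.291, adjusted p = 0.0423). The Tlr12 call was lost with DESeq2 (adjusted p = 0.0816), edgeR's filterByExpr (0.0544) and the 6-group fit (0.0837), and without WT replicate 1 (0.195), WT replicate 2 (0.0631) or RIPK3 replicate 1 (0.164).

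The other endosomal receptors did not fall with RIPK3 medium. Tlr13 was at 33.1, 28 and 30 CPM, with a difference from WT of -0.04 (95% interval -0.21 to 0.13). Tlr3 was at 3.03, 3.21 and 4.26 CPM, above all 3 WT samples, with a difference of 0.53 ± 0.197 (log2, SE) that missed the threshold (adjusted p = 0.0628). Tlr7 stayed at 0 to 4 counts a sample in all cDC1 groups.

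At the surface, Tlr6 was at 14.7, 14.2 and 14.9 CPM with RIPK3 medium, between the WT and the BimS samples with no overlap to either. Its difference from WT was 0.26 ± 0.0943 (log2, SE; adjusted p = 0.0522) and was called with RLE size factors (adjusted p = 0.0454) and filterByExpr (0.0331). Tlr1 had 0.32 (95% interval -0.04 to 0.68), Tlr2 -0.23 (-0.46 to -0.01, adjusted p = 0.16) and Tlr4 -0.2 (-0.37 to -0.04, adjusted p = 0.0901). Samples with the same replicate number deviate together within each cell type, and with that number as a block 6 members were called rather than 3, where 21% of all genes were. The added calls were Tlr3 (0.54, adjusted p = 0.0189), Tlr6 (0.27, adjusted p = 0.0194) and Tlr4 (-0.2, adjusted p = 0.0465). Without the block, Tlr3 was also called when WT replicate 3 (0.7, adjusted p = 0.0294) or RIPK3 replicate 1 (0.62, adjusted p = 0.041) was left out.

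The direct comparison of the 2 kinds of debris in cDC1s called 2 of 10 members, both lower with RIPK3, where 4.15% of all genes were called (1.94% higher, 2.21% lower). They were Tlr9, as above, and Tlr13, whose difference was -0.3 ± 0.0823 (log2, SE; adjusted p = 0.0317). For Tlr13 the groups overlapped, since BimS replicate 2 (32.7 CPM) lay below RIPK3 replicate 1 (33.1 CPM). Within each replicate number Tlr13 was lower with RIPK3 than with BimS. The Tlr13 call was lost with filterByExpr (adjusted p = 0.0519), in the 6-group fit (0.168), and without BimS replicate 1 (0.142), BimS replicate 3 (0.152), RIPK3 replicate 2 (0.159) or RIPK3 replicate 3 (0.0579). With the replicate number as a block, Tlr9 (-0.49, adjusted p = 5.1e-13) and Tlr13 (-0.3, adjusted p = 0.000267) stayed called. Tlr11 joined them (-0.34, adjusted p = 0.0474), where 8.82% of all genes were called. Tlr6 had -0.22 (95% interval -0.4 to -0.03, adjusted p = 0.211), and the intervals for Tlr1 (-0.55 to 0.13), Tlr2 (-0.22 to 0.24), Tlr3 (-0.46 to 0.29), Tlr4 (-0.28 to 0.05) and Tlr12 (-0.88 to 0.4) included 0. These comparisons share samples pairwise, so they are not independent. The macrophage or monocyte markers moved with the media too, summing to 8.8 to 11.7 CPM in WT cDC1s, 5.23 to 5.31 CPM in BimS cDC1s and 4.45 to 6.62 CPM in RIPK3 cDC1s, and the cDC1 markers summed to 1560 to 1730, 1450 to 1600 and 1410 to 1490 CPM. Single cDC1 markers went both ways: Xcr1 (0.44 and 0.57, adjusted p = 2.62e-08 and 5.48e-11) and Clec9a (0.26 and 0.24, adjusted p = 0.000169 and 3e-04) were higher with BimS and RIPK3, and Irf8 (-0.75 and -0.82, adjusted p = 3.67e-12 and 3.97e-13), Itgae (-0.45 and -0.84, adjusted p = 1.56e-05 and 6.7e-11) and Wdfy4 (-0.18 and -0.41, adjusted p = 0.0274 and 2.14e-06) were lower. Cd8a, a marker of the sort, was higher with RIPK3 (0.55, adjusted p = 0.000192), and Esam of the cDC2 list was higher with both (2.04 and 2.38, adjusted p = 0.00033 and 1.56e-05) at low levels. Fcgr1, a macrophage marker, was lower with both (-1.03 and -2.12, adjusted p = 6.74e-05 and 6.99e-10). The sums of plasmacytoid markers did not overlap between WT and either kind of debris, and Tcf4 of that list was lower with both (-0.23 each, adjusted p = 0.0484 and 0.0487), whereas Siglech had 1 to 4 counts in every cDC1 sample. The part of any of these in the results was not tested.

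**Figure D3:**
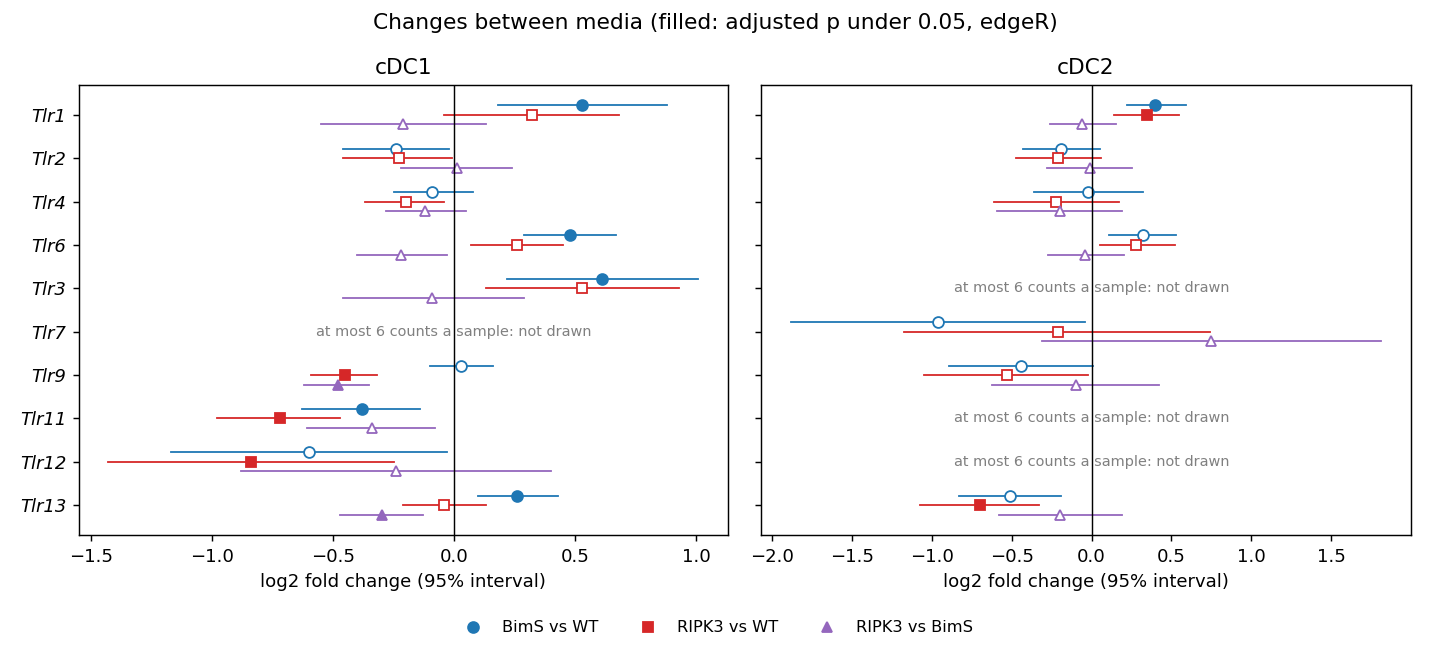
Log2 fold change of each receptor between media in cDC1s and cDC2s, with its 95% interval from the edgeR fit (filled symbols: adjusted p under 0.05). In cDC1s the filled red squares are Tlr9 (-0.45), Tlr11 (-0.72) and Tlr12 (-0.84), whereas in cDC2s they are Tlr1 (0.35) and Tlr13 (-0.7). Receptors with at most 6 counts a sample are not drawn.

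Since Tlr9, Tlr11 and Tlr12 were lower together with RIPK3 medium, the 250 bases before the start of each are shown, beside those of Tlr6, which was higher with BimS medium. Promoters of 8 of the 10 members were found in RefSeq (GRCm38.p6), and Tlr4 and Tlr7 had no entry there. Tlr1 and Tlr6 have 2 start sites each in that table, and for Tlr6 the window that holds matches is printed. Each printed window matched GRCm39 exactly once. Capitals mark matches, on either strand, to the letters of 5 motifs: the ISRE core (GAAA, then NN, then GAAA), the ETS-IRF composite (GGAA, then NN, then GAAA), the AP-1 site (TGANTCA), the NF-kB site (GGG, then NNTT, then NCC) and the PU.1 site (GAGGAAGT). Of all 32851 windows of this length, 2.98%, 2.3%, 6.75%, 4.11% and 2.44% hold them. The windows are chr9:106099547-106099796 (plus strand) for Tlr9, chr14:50595121-50595370 (plus) for Tlr11, chr4:128512413-128512662 (minus) for Tlr12 and chr5:65116510-65116759 (minus, within an intron of the longer annotated Tlr6 transcripts) for Tlr6.
Tlr9: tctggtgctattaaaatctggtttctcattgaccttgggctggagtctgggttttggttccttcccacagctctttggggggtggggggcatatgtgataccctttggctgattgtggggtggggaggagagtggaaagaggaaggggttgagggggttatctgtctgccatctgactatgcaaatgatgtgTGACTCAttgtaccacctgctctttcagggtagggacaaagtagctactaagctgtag
Tlr11: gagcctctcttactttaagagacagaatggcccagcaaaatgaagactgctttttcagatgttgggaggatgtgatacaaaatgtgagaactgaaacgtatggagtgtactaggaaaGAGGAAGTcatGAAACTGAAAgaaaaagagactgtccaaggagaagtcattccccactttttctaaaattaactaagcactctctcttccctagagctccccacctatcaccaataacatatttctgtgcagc
Tlr12: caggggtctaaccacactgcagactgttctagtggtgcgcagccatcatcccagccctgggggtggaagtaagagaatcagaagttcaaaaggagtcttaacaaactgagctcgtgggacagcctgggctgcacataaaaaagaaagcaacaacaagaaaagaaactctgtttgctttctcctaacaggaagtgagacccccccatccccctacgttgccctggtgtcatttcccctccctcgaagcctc
Tlr6: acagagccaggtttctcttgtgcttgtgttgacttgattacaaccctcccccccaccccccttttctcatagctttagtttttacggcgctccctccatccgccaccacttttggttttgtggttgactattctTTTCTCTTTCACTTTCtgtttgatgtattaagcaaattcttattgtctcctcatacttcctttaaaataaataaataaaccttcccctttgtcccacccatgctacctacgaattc
The 3 receptors that were lower held no motif in common. Tlr9 has an AP-1 match at -58 from the start, Tlr11 a PU.1 match at -133 and an ISRE core at -122, and Tlr12 no match. Tlr6 has a pair of overlapping ISRE cores on the minus strand, at -116 and -110, in the printed window, and no match in the window of its other start site, chr5:65117392-65117641. Of the promoters not printed, Tlr3 held an NF-kB match at -211, Tlr2 one at -172 and Tlr1 a PU.1 match at -23 of 1 start site and none at the other, whereas Tlr13 held no match. A match is a description of letters, not evidence of binding.

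In cDC2s Tlr1 rose with both kinds of debris, and with the replicate number as a block 5 members were called with each, Tlr1 and Tlr6 higher and 3 lower, Tlr9 and Tlr13 among them with both (values below). BimS against WT medium called 1 of the 9 members tested, where 7.01% of all genes were called (3.8% higher, 3.21% lower), and RIPK3 against WT called 2 of 9, where 7.21% were (3.93% higher, 3.28% lower). The median log2 fold change of the members was -0.19 and -0.22, against -0.02 for all genes in both. Tlr12 was at most 2 counts and was not tested.

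Tlr1, the most abundant receptor mRNA of cDC2s, was at 79.8, 67.5 and 67.3 CPM with WT medium, at 93.2, 89.7 and 101 CPM with BimS medium, and at 93.4 and 89.6 CPM with RIPK3 medium. All 5 samples with debris exceeded the 3 WT samples. The increase was 1.32-fold with BimS (log2 fold change 0.4 ± 0.0889 SE, adjusted p = 0.00661) and 1.27-fold with RIPK3 (0.35 ± 0.0988 SE, adjusted p = 0.0373). The BimS call was lost without WT replicate 2 (adjusted p = 0.0673). It was also lost with limma, whose values are not scaled for library size (0.34, adjusted p = 0.155). The RIPK3 call was lost with limma (0.17, adjusted p = 0.559), and without WT replicate 2 (0.174), BimS replicate 1 (0.0552) or 2 (0.0598), or RIPK3 replicate 1 (0.264) or 2 (0.187), the last pair leaving that group with 1 sample that is assumed to vary like the others.

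Tlr13 was at 7.54, 9.29 and 9.28 CPM in WT cDC2s, at 5.05, 6.15 and 7.16 CPM in BimS cDC2s and at 5.17 and 5.57 CPM in RIPK3 cDC2s. The WT samples were the highest 3, without overlap. Tlr13 fell by 0.7 with RIPK3 (log2, SE 0.178, adjusted p = 0.0171), to 0.615 of the WT level. With BimS the difference was -0.51 ± 0.153 (log2, SE) and missed the threshold narrowly (adjusted p = 0.0511). It was called without a filter (adjusted p = 0.0331), in the 6-group fit (0.0126), and without WT replicate 1 (0.0233) or BimS replicate 3 (0.0329). The RIPK3 call was lost without WT replicate 2 (adjusted p = 0.0801) or RIPK3 replicate 1 (0.181) or 2 (0.12).

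Within cDC2s, WT replicate 3 differed most from the other replicates of its group (chi-square per degree of freedom of 32.4 and 14.4 against replicates 1 and 2, where the other pairs of all groups lay between 3.1 and 13.6). Without it, 1 and 2 members were called with BimS and RIPK3, the same numbers as with it. Markers moved with the media in cDC2s as well. The 8 cDC2 markers summed to 331 to 381 CPM with WT, 319 to 347 CPM with BimS and 292 to 329 CPM with RIPK3 medium. Among them Irf4, a transcription factor of this lineage, was lower with BimS (-1.16, adjusted p = 8.74e-07) and RIPK3 (-1.52, adjusted p = 2.42e-07), Clec10a was lower with RIPK3 (-0.98, adjusted p = 0.000558), and Sirpa was not called. Cd209a was lower with RIPK3 (-0.5, adjusted p = 0.0199), whereas Esam (1.98 and 1.81, adjusted p = 0.000221 and 0.0015) and Clec4a4 (0.48 and 0.63, adjusted p = 0.045 and 0.014) were higher with both. The macrophage or monocyte markers summed to 17.8 to 30.5, 18.2 to 20.9 and 15.5 to 20.2 CPM, and the neutrophil markers to 1.72 to 3.24, 0.835 to 1.34 and 1.29 to 1.49 CPM. The T- and NK-cell markers summed to 1.61 to 2, 0.656 to 1.58 and 1.1 to 1.23 CPM, and Cd3g was lower with BimS (-2.15, adjusted p = 0.0341). Fcgr1 was lower with RIPK3 (-0.65, adjusted p = 0.0128), as was Bst2 of the plasmacytoid list (-0.55, adjusted p = 0.0241). The part of these markers in the cDC2 results was not tested.

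Tlr9 in cDC2s varied with the replicate number. It was at 18.8, 17.7 and 12.8 CPM with WT medium, at 10.7, 16.3 and 9.24 CPM with BimS medium, and at 11.3 and 11.5 CPM with RIPK3 medium. Replicate 3 was the lowest of the WT and of the BimS samples, and the same was true of Tlr4 (9.8, 10.5 and 7.34 CPM with WT, 10.2, 10 and 7.1 CPM with BimS). The Tlr9 differences from WT were -0.44 ± 0.205 with BimS (adjusted p = 0.292) and -0.53 ± 0.235 with RIPK3 (adjusted p = 0.251; log2, SE). With the replicate number as a block they were -0.45 (adjusted p = 3.12e-05) and -0.7 (adjusted p = 1.29e-08). They were also called without a filter (adjusted p = 0.0218 and 0.00921), and the BimS difference without BimS replicate 2 (-0.72, adjusted p = 0.0191). Limma called both (adjusted p = 0.0303 and 0.00632), but on log2(count + 1) values that are not scaled for library size.

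Tlr6 in cDC2s was at 15.2, 14.8 and 15.9 CPM with WT medium, at 19.6, 18.8 and 18.8 CPM with BimS medium and at 18.5 and 18.9 CPM with RIPK3 medium. Every sample with debris lay above the WT samples, as for Tlr1, with which Tlr6 shares sequence, yet the differences of 0.32 ± 0.101 (adjusted p = 0.0648) and 0.28 ± 0.113 (adjusted p = 0.169; log2, SE) were not called. With the block they were (0.32, adjusted p = 0.00165, and 0.29, adjusted p = 0.027), and the BimS difference also with RLE size factors (adjusted p = 0.0491), filterByExpr (0.0354) and the 6-group fit (0.0152).

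The block raised the count to 5 of 9 members for each kind of debris in cDC2s, where 21.3% (BimS) and 21.4% (RIPK3) of all genes were called. Beside Tlr1, Tlr6, Tlr9 and Tlr13 these were Tlr2 with BimS (-0.19, adjusted p = 0.0119) and Tlr4 with RIPK3 (-0.37, adjusted p = 0.0408); Tlr13 with BimS had an adjusted p of 0.000558. Without the block Tlr2 was at 36.8, 42.6 and 46.8 CPM with WT, 31.9, 41.1 and 37.6 CPM with BimS and 33.1 and 40.3 CPM with RIPK3, and the groups overlapped. Tlr4 with RIPK3 was at 8.6 and 7.38 CPM, within the range of the WT samples. Tlr7 had 12, 17 and 10 counts with WT, 5, 6 and 8 with BimS and 8 and 12 with RIPK3, and its difference of -0.96 ± 0.438 (log2, SE) with BimS was not called (adjusted p = 0.245). Tlr11 had 4, 2 and 5 counts with WT, 2, 5 and 5 with BimS and 1 and 3 with RIPK3, and Tlr3 had 2, 6 and 3, then 0, 1 and 2, then 0 and 0, too few to compare.

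Between RIPK3 and BimS cDC2s 0 of 9 members were called by edgeR, DESeq2 or limma, where 0.379% of all genes were called by edgeR. With the block it was again 0 of 9, where 14.3% were. By edgeR 0 members had an unadjusted p under 0.05, against 1653 of the 19239 genes tested. The 95% intervals of the difference were -0.26 to 0.15 for Tlr1, -0.28 to 0.25 for Tlr2, -0.59 to 0.19 for Tlr4, -0.27 to 0.2 for Tlr6, -0.62 to 0.42 for Tlr9 and -0.58 to 0.19 for Tlr13 (log2). Differences of the size seen for Tlr9 in cDC1s lie within the interval for Tlr9 here.

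Whether the lineages responded differently was tested as the change in cDC1s minus the change in cDC2s. Tlr3, Tlr11 and Tlr12 in cDC2s and Tlr7 in cDC1s had at most 6 counts a sample. These are too few to compare, although the genes are counted among the 10 members. With BimS medium 1 of 10 members was called, where 0.859% of all genes were (0.555% higher in cDC1s, 0.304% lower). It was Tlr13, which had risen from 31.1 ± 2.72 to 37.4 ± 4.19 CPM in cDC1s while its level in cDC2s went from 8.71 ± 1.01 to 6.12 ± 1.05 CPM (SD, n = 3 each). The difference of the changes was 0.77 ± 0.169 (log2, SE; adjusted p = 0.0179). This call was lost with limma (0.81, adjusted p = 0.0743), and without cDC1 WT replicate 1 (0.0587) or 2 (0.0622), cDC2 WT replicate 2 (0.0704), cDC1 BimS replicate 1 (0.0687) or 3 (0.0575), or cDC2 BimS replicate 1 (0.0899) or 2 (0.0513). With the block the Tlr13 call held (0.77, adjusted p = 5.48e-06) and Tlr9 was called as well (0.47, adjusted p = 0.00535), where 5.03% of all genes were. Tlr9 was also called without cDC2 BimS replicate 2 (0.75, adjusted p = 0.0272).

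With RIPK3 medium 0 of 10 members differed between the lineages by edgeR or DESeq2 and 1 by limma. By edgeR 1.14% of all genes were called. Of the members 2 had an unadjusted p under 0.05 by edgeR, as did 1636 of the 19082 genes tested. For Tlr13 the difference of the changes was 0.66 ± 0.189 (log2, SE; adjusted p = 0.106). It was called without a filter (0.67, adjusted p = 0.0147), without cDC2 WT replicate 1 (0.75, adjusted p = 0.04) and with the block (0.58, adjusted p = 0.0102). The block called 2 members, where 5.06% of all genes were called, and the other was Tlr3 (adjusted p = 0.0271 with the block and 0.107 without). Tlr3 has 0 to 6 counts in each cDC2 sample and 0 in both RIPK3 cDC2 samples. These are too few to compare, so no size is given and nothing is read from its call. The decrease of Tlr9 was not shown to differ between the lineages (0.07, 95% interval -0.46 to 0.6), nor was the change of Tlr1 (-0.04, -0.41 to 0.33) or Tlr6 (-0.03, -0.31 to 0.25). For Tlr11 and Tlr12 the cDC2 counts were too low to compare. The difference between RIPK3 and BimS called 0 of 10 members by edgeR, DESeq2 or limma, where 0.0314% of all genes were called by edgeR. With the block it was again 0 members, where 2.37% were. By edgeR 0 members had an unadjusted p under 0.05, against 972 of the 19082 genes tested. Tlr12 had 0 counts in all BimS and RIPK3 cDC2s, so this test could not call it.

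Genes around the receptors were called in both directions in both lineages. The lists hold 61 genes: the receptors Tlr5 and Tlr8, and co-receptors, chaperones, endosomal enzymes, adaptors, kinases, inhibitors, transcription factors and early targets of the receptors. Of the 61 genes, 59 were tested. With BimS and RIPK3 medium 23 (39%) and 20 (33.9%) of them were called in cDC1s, and 11 (18.6%) and 15 (25.4%) in cDC2s. Over all genes the shares were 13.2% and 16.5% in cDC1s and 7.01% and 7.21% in cDC2s. The lists were chosen with earlier results of these data known. The median gene of the lists changed by 0.01, 0, -0.02 and -0.03 (log2), in that order. Between RIPK3 and BimS medium 6 (10.2%) were called in cDC1s and 4 (6.78%) in cDC2s, where 4.15% and 0.379% of all genes were. Between the lineages it was 48 (81.4%), where 59.8% of all genes were called.

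Among 6 genes for trafficking and folding of the receptors, calls went in both directions. Unc93b1, the chaperone of the endosomal receptors, was lower in all 4 comparisons with WT medium: in cDC1s it went from 225 ± 7.62 CPM to 194 ± 9.7 with BimS (-0.21, adjusted p = 0.00217) and 174 ± 3.8 with RIPK3 (-0.37, adjusted p = 3.72e-07; SD, n = 3 each). In cDC2s it went from 69.4 ± 5.49 CPM to 41.5 ± 1.34 with BimS (-0.74, adjusted p = 1.02e-05; SD, n = 3 each) and 44.8 ± 0.961 with RIPK3 (-0.64, adjusted p = 0.000192; SD, n = 2). The decrease with BimS was larger in cDC2s by test (difference of the changes 0.53, adjusted p = 0.00182). Slc15a3, an endolysosomal histidine and peptide transporter, was higher in all 4 (0.18 and 0.4 in cDC1s, 0.33 and 0.47 in cDC2s, adjusted p between 3.57e-08 and 0.00728). Tasl, which links Slc15a4 to Irf5, was lower in cDC1s (-0.52 and -0.49, adjusted p = 0.00304 and 0.00471), and Cnpy3, a folding chaperone of several receptors, was higher there (0.17 and 0.26, adjusted p = 0.0199 and 0.000187). Of the 6, 5 were called with either kind of debris in cDC1s and 2 in cDC2s.

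Nothing is read from the shares of the single lists, which are short. Of the proteases and nucleases of endosomes, which cleave the receptors or digest their ligands, 5 of 9 were called with BimS (4 lower) and 2 with RIPK3 (both lower) in cDC1s. Ctsl, a cathepsin, was lower with both (-0.51 and -0.58, adjusted p = 0.0183 and 0.00561), as was Rnaset2a, a lysosomal ribonuclease (-0.64 and -0.6, adjusted p = 0.0124 and 0.0173). Dnase2a, which digests DNA in lysosomes, was higher with BimS (0.47, adjusted p = 3.87e-05) and lower with RIPK3 than with BimS (-0.34, adjusted p = 0.00875). In cDC2s 1 of 9 was called with BimS and 2 with RIPK3: Ctss, another cathepsin, was lower (-0.4 and -0.33, adjusted p = 0.00689 and 0.0467) and Lgmn, the asparagine endopeptidase, was higher with RIPK3 (0.33, adjusted p = 0.0163).

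Among 6 co-receptors and partners at the surface, of which 5 were tested, Cd36, a scavenger receptor that cooperates with Tlr2 and Tlr6, was higher in all 4 comparisons with WT medium. It went from 1320 ± 88.8 to 1850 ± 60.4 and 2020 ± 94.1 CPM in cDC1s (0.49 and 0.61, adjusted p = 7.28e-10 and 2.06e-12; SD, n = 3 each). In cDC2s it went from 312 ± 21.9 to 555 ± 34.6 CPM with BimS (0.83, adjusted p = 1.09e-06; SD, n = 3 each) and 473 ± 18.7 CPM with RIPK3 (0.59, adjusted p = 0.000167; SD, n = 2). Cd14, the co-receptor that hands lipopolysaccharide to Tlr4, was higher in cDC2s (0.46 and 0.87, adjusted p = 0.0233 and 0.000227). Cd180, a Tlr4 homolog that dampens Tlr4 in dendritic cells, was higher in cDC1s (1.09 and 0.52, adjusted p = 3.62e-07 and 0.0132), and its response to BimS differed between the lineages (1.11, adjusted p = 0.00778). Its partner Ly86 was lower in cDC1s (-0.4 and -0.33, adjusted p = 0.000334 and 0.00267) and in BimS cDC2s (-0.57, adjusted p = 0.0183).

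Of the 6 adaptors 1 and 2 were called in cDC1s and 0 and 3 in cDC2s: Pik3ap1, which dampens receptor signaling, was higher (0.19 and 0.21 in cDC1s, 0.57 in RIPK3 cDC2s, adjusted p = 0.00198, 0.000328 and 0.0119), as was Ticam1, the adaptor of Tlr3, with RIPK3 (0.19 and 0.34, adjusted p = 0.0105 and 0.0325). Tirap, which bridges Tlr2 and Tlr4 to Myd88, was lower in RIPK3 cDC2s (-0.34, adjusted p = 0.0432). Of the 12 kinases and ubiquitin ligases 3 and 1 were called in cDC1s and 1 and 2 in cDC2s, these being higher. That is 25%, 8.33%, 8.33% and 16.7%, of which the second is below the share over all genes and the third is near it. Tbk1, the kinase that activates Irf3, was higher in all 4 comparisons (0.44 and 0.43 in cDC1s, 0.44 and 0.35 in cDC2s, adjusted p = 5.98e-08, 7.16e-08, 0.00232 and 0.0262), Traf3 in BimS cDC1s (0.18, adjusted p = 0.0383) and Irak2 in RIPK3 cDC2s (0.53, adjusted p = 0.000561).

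Inhibitors and transcription factors that were called were lower. Of 7 inhibitors 2 and 3 were called in cDC1s and 1 and 0 in cDC2s, among them Tnfaip3 (A20; -0.21 and -0.26 in cDC1s, adjusted p = 0.00855 and 0.000808), Tnip1 (-0.19 in BimS cDC1s, adjusted p = 0.00572) and Sigirr (-0.49 in RIPK3 cDC1s and -0.81 in BimS cDC2s, adjusted p = 0.000777 and 0.00523). Of 5 transcription factors, Irf7, which drives type I interferon genes downstream of Tlr7 and Tlr9, was lower in RIPK3 cDC1s (-0.84, adjusted p = 0.0457), BimS cDC2s (-0.75, adjusted p = 0.017) and RIPK3 cDC2s (-1.17, adjusted p = 0.00264). Nfkb1, a subunit of NF-kB, was lower in cDC1s (-0.34 and -0.22, adjusted p = 2.95e-07 and 0.000368).

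Early target genes did not move as 1 group. Of 8 tested in cDC1s 3 were called with BimS and 2 with RIPK3, and of 7 in cDC2s 2 and 3. Ptgs2 (cyclooxygenase 2) was higher in all 4 comparisons, from 34.3 ± 5.7 to 110 ± 9.62 CPM with BimS (SD, n = 3 each) and 186 ± 15.2 CPM with RIPK3 (SD, n = 2) in cDC2s (1.67 and 2.43, adjusted p = 1.68e-08 and 2.97e-10), and at far lower levels in cDC1s (1.26 and 2.03, adjusted p = 0.00255 and 5.05e-07). Cxcl10, an interferon-induced chemokine, was lower with RIPK3 in both lineages (-0.69 and -1.29, adjusted p = 0.000207 and 1.08e-05) and with BimS in cDC2s (-0.53, adjusted p = 0.0114). Il6 was lower in BimS cDC1s (60.7 ± 3.88 to 43.1 ± 3.26 CPM, SD, n = 3 each; -0.49, adjusted p = 5.7e-07) and higher in RIPK3 cDC2s (0.72, adjusted p = 0.000106), and its response differed between the lineages with both media (-0.72 each, adjusted p = 0.000823 and 0.00116). Nfkbiz was lower in BimS cDC1s (-0.24, adjusted p = 0.0157), and Il1b was higher in RIPK3 than in BimS cDC1s (0.15, adjusted p = 0.0327).

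**Figure D4:**
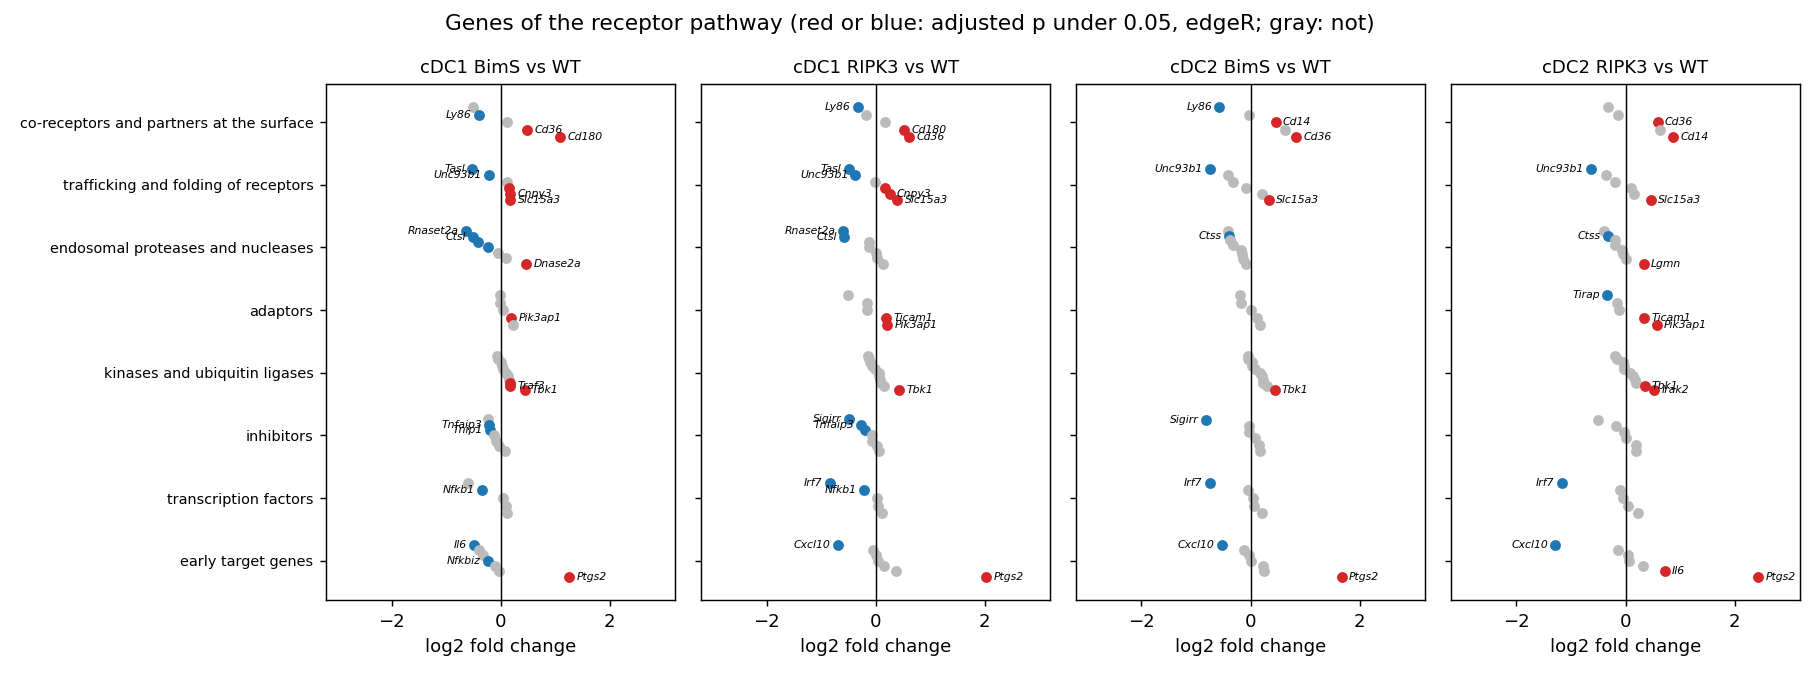
Log2 fold change against WT medium of the pathway genes with a mean of at least 1 CPM, by list and comparison, without Tlr5 and Tlr8. Red or blue marks an adjusted p under 0.05 by edgeR, and gray marks genes not called. The most changed called genes of each list are named. Unc93b1 lies to the left and Cd36, Slc15a3, Tbk1 and Ptgs2 to the right of 0 in all 4 panels.

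Across all 17 samples, the genes whose log2 CPM followed each receptor most closely are given as a description, since the samples fall into 2 cell types and share media and replicate numbers. Candidates were the 7780 or 7781 other genes with a mean log2 CPM of 3 or more. The closest gene to Tlr1 was Ankrd33b (Pearson r = 0.997), to Tlr2 Mcemp1 (0.993), to Tlr4 Lpgat1 (0.989) and to Tlr6 Cdkn2b (0.949). For the endosomal receptors it was Tlr13 for Tlr3 (0.991), Tep1 for Tlr9 (0.993), Bco2 for Tlr11 (0.994), Flt3 for Tlr12 (0.988) and Vav1 for Tlr13 (0.992). Within the 9 cDC1 samples alone r was 0.91 for Tlr6 with Cdkn2b and 0.89 for Tlr9 with Tep1, but 0.5 for Tlr3 with Tlr13.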

How the data were processed

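Messenger RNA of 17 sorted cDC1 and cDC2 samples was sequenced as paired reads of 54 bases. Per the labels and the study's methods, the authors trimmed reads with SeqPurge, aligned them to GRCm39 with STAR 2.7.10a and Ensembl gene models, and deposited raw counts per gene without pooling replicates. A deposited table of log2 values scaled by library total was not used. The poly-A kit leaves 16095159 to 21645289 counts per library. The 148 lines that name no gene were left out, and 30854 of 31091 identifiers matched GENCODE gene names.

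Groups follow the labels. Genes with a nonzero count in at least 50% of the samples of a fit were tested with edgeR 4.0.16 (TMM, robust quasi-likelihood test, Benjamini-Hochberg adjustment over all genes tested, threshold 0.05) in R 4.3.3. The 9 cDC1 and 8 cDC2 samples were fitted separately, and all 17 together for the lineages (medium as a term) and for the difference of the responses. The study's methods describe log2(count + 1) values, and a limma test that they base on the raw counts, with thresholds of their own. The main test here replaces that test. Limma 3.58.1 on log2(count + 1) values, not scaled for library size, is 1 reading of it and served as an alternative. The others were DESeq2 1.42.0, RLE size factors, other filters, 1 fit of 6 groups, the replicate number as a block and leaving out each sample. Fold changes are log2 of scaled counts. The scripts were tested on simulated data.

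Samples that share a replicate number, as the labels give it, deviated together: in 9 of 9 cDC1 pairs and 7 of 7 cDC2 pairs the deviations from the group means correlated above 0.1 (median 0.324 and 0.427), against 1 of 18 and 3 of 14 pairs with different numbers. Across cell types this held in 19 of 24 pairs with the same number (median 0.21) and 5 of 48 with different numbers (median -0.101), so the numbers pair the samples within cell types and in part across them. No replicates agreed within counting noise (chi-square per degree of freedom of 3.1 to 32.4). The 10 members, the pathway lists and the markers were chosen with earlier results of these data known. All members are named, and of each pathway list at most the 2 genes with the largest called change in each direction per comparison of media with a mean of at least 1 CPM.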

Additional observations from a re-analysis of the deposited data

Results flagged for a closer look

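The response of Tlr13, the receptor for bacterial ribosomal RNA, to apoptotic debris differed between the lineages in the edgeR test, a call that did not hold in every fit. The change in cDC1s minus the change in cDC2s between BimS and WT medium was 0.77 on the log2 scale (SE 0.169, edgeR adjusted p = 0.0179), and it was noted because the difference itself passed the test. The call was lost with limma (0.81, adjusted p = 0.0743) and when any 1 of 7 single samples was left out (adjusted p from 0.0513 to 0.0899). It held in edgeR with the replicate number as a block (0.77, adjusted p = 5.48e-06). Tlr13 rose in cDC1s (log2 fold change 0.26, adjusted p = 0.0281) and had a difference of -0.51 in cDC2s (adjusted p = 0.0511). With the block the adjusted p was 0.00056 in cDC1s and 0.000558 in cDC2s. The corresponding quantity for RIPK3 against WT medium was 0.66 (adjusted p = 0.106), and 0.58 with the block (adjusted p = 0.0102). No group has more than 3 samples, so none was tested for single outlying samples.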

How the results depend on the processing

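No member's called change turned direction under any alternative. Over single members, other settings left 441 results on their side of the threshold, added 25 calls and lost 20, and leaving out 1 sample gave 774, 8 and 37. The calls that held in each fit run were Tlr6 with BimS and Tlr11 with RIPK3 in cDC1s, and those between the lineages apart from Tlr6. Counts were low for Tlr1, Tlr3 and Tlr12 in cDC1s and Tlr7 in cDC2s, and groups hold 3 samples, or 2 for RIPK3 cDC2s. Calls of genes with more counts were also lost in some fits (Tlr9 and Tlr13 in cDC1s, Tlr1 in cDC2s). The cause of each move below was not tested.

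Members called between BimS and WT cDC1s were 5 by the main test, 3 by DESeq2, 1 by limma and 2 in the 6-group fit (2 to 5 when 1 sample was left out). All genes called there were 2576, and 1510 by limma. Between RIPK3 and WT cDC1s it was 3 members, 2 by DESeq2, 4 with RLE, 1 in the 6-group fit and 2 to 4 without 1 sample. All genes called there were 3226, 2749 by limma, 2339 in the 6-group fit and 2532 to 3314 without 1 sample. Between RIPK3 and BimS cDC1s it was 2 members, 1 with filterByExpr, 0 in the 6-group fit and 1 to 2 without 1 sample (all genes 810, 403 by limma, 265 in the 6-group fit, 489 to 1027 without 1 sample). Between BimS and WT cDC2s it was 1 member, 2 with RLE or filterByExpr, 3 without a filter or in the 6-group fit, and 0 to 2 without 1 sample (all genes 1349, 2147 in the 6-group fit, 783 to 1504 without 1 sample). Between RIPK3 and WT cDC2s it was 2 members and 0 to 2 without 1 sample (all genes 1387, 2108 in the 6-group fit, 622 to 1819 without 1 sample). Between RIPK3 and BimS cDC2s all genes called were 73, 141 by DESeq2, 46 with filterByExpr, 300 without a filter, 148 by limma, 244 in the 6-group fit, and from 0 (without RIPK3 replicate 2) to 214 (without WT replicate 3). For the difference of the BimS responses it was 1 member, 0 by limma and 0 to 1 without 1 sample (all genes 164, 261 by DESeq2, 315 without a filter, 67 by limma, 93 to 234 without 1 sample). For that of the RIPK3 responses it was 0 members, 2 without a filter, 1 by limma and 0 to 1 without 1 sample (all genes 217, 371, 109 and 111 to 258). For RIPK3 against BimS all genes were 6, 19 by DESeq2, 25 without a filter, 3 by limma and 0 to 10 without 1 sample.

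With the replicate block, 6 members were called between RIPK3 and WT cDC1s, and 3 between RIPK3 and BimS cDC1s (all genes 1721). In cDC2s 5 members were called with each kind of debris (all genes 4103 for BimS and 4124 for RIPK3), and 2755 genes differed between them. For the differences of the responses the block called 2 members each for BimS and RIPK3 against WT (all genes 959 and 965). Among those for RIPK3 was Tlr3, whose cDC2 counts are too few to compare. The block called 453 genes for RIPK3 against BimS. The calls it added are given with the results, and it changed no other call of a member. Between the lineages it called 11587 genes against 11408 and the same number of members, 10.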
